A study of Mus musculus with 12 samples.

Results

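Clps, Pnliprp2, Hapln1, Hapln3 and Hapln4 are genes of secreted proteins that were counted at low levels in mouse proximal colon. These 5 of the 55376 genes in the count table were picked by symbol, with their difference between EPR fl/fl and EPR cKO colon already known, so that difference is described below without a test. RNA-Seq was performed on total RNA from the frozen proximal segment of the colon of 12-week-old mice, with 6 EPR fl/fl animals (controls) and 6 EPR cKO animals (knockouts) and a library from each. The EPR fl/fl mice, given as wt in the genotype label, carried loxP sites around the promoter and exon 1 of EPR, a long noncoding RNA of epithelial cells, and no Cre. The EPR cKO mice had the same floxed allele and the CDX2P-NLS Cre transgene, which expresses Cre under human CDX2 sequences in epithelial cells of the end of the ileum, the cecum and the colon. The groups therefore differed by the presence of Cre as well as by the loss of EPR, and these cannot be told apart. Tissue was taken whole, with muscle, nerves and vessels, so that fewer cells of a type and less RNA per cell cannot be told apart in any value below.

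Colipase, the product of Clps, is a small protein cofactor that holds pancreatic lipase on fat droplets coated with bile salts. Pnliprp2 encodes pancreatic lipase-related protein 2, a lipase that also splits galactolipids and phospholipids. Both are best known as products of the acinar cells of the pancreas. The Hapln genes encode hyaluronan and proteoglycan link proteins, which fasten proteoglycans of the lectican family (aggrecan, versican, neurocan and brevican) to chains of hyaluronan in the extracellular matrix. Hapln1 is the cartilage link protein and is also made by stromal cells, Hapln4 is best known from the perineuronal matrix of the brain, and Hapln3 is the member with the widest tissue distribution.

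The promoter of Pnliprp2 is shown because its level went up and down together with that of Clps among libraries. In the RefSeq table (GRCm38.p6), 3 of the 5 members had an entry, Pnliprp2, Hapln1 and Hapln3. Each entry covers 300 bases, and that of Pnliprp2 lies at chr19:58759473-58759772 on the + strand, with a GC content of 58.7%. Capitals mark the letters CCGCCC, the core of a GC box:
Pnliprp2: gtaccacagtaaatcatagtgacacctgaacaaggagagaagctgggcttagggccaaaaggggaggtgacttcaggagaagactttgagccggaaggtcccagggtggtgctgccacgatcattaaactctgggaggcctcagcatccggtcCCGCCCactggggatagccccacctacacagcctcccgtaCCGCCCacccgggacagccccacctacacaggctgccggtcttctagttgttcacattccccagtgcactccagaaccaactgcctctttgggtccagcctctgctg
CCGCCC was searched on both strands with 5 other motifs. It starts at -97 and at -57 from the gene start on the + strand of the Pnliprp2 entry, and 35.7% of all 32851 promoters of this length hold it. TATAAA (held by 13.6% of promoters), AAAGTCCA (1.248%), TTTATG (11.9%), CAATTA (8%) and GATAAG (7.44%) were not found in the Pnliprp2 entry. None of the 6 motifs was found in the Hapln1 entry, and Hapln3 held only TATAAA, at -239. These matches describe letters and not binding sites.

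The libraries held between 13093904 and 33211041 counts, with a median of 20954457. EPR, listed under the symbol Smim31, averaged 39.5 ± 14.5 CPM (read counts per library brought to a common total, with TMM scaling; mean ± SD, n = 6) in the controls and 0.132 ± 0.152 CPM in the knockouts (log2 fold change -8.09, SE 0.47, edgeR adjusted p = 1.62e-06), so the labels and the targeted gene went together. EPR cKO replicate 1 stood apart from the other EPR cKO libraries. It held the most RNA of the smooth muscle markers (8125 CPM summed, against 874 to 2348), the fibroblast markers and the neuron and glia markers, and the least of the epithelium markers (8822 CPM). Without it, the number of genes with adjusted p under 0.05 was 2273 lower and 1178 higher in EPR cKO, instead of 251 and 141. Results that it decides are marked below.

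Clps (chr17:28558149-28560766, - strand, mm10, 611 exon bases) had the most counts of the members in EPR fl/fl. Control replicates 1 to 6 held 108, 122, 235, 138, 39 and 62 counts, and knockout replicates 1 to 6 held 10, 10, 8, 18, 19 and 5 counts. The EPR fl/fl libraries ranged from 2.80 to 7.91 CPM with a median of 4.22, and the EPR cKO libraries from 0.266 to 0.804 CPM with a median of 0.487. All EPR fl/fl libraries lay above all EPR cKO libraries, and the lowest control stood well clear of the highest knockout. Controls averaged 4.99 ± 2.16 CPM and knockouts 0.506 ± 0.186 CPM (± SD of 6 libraries each), which is 10.1% of the control level (log2 fold change -3.27, SE 0.33). Leaving out each library in turn gave log2 fold changes from -3.45 to -3.11.

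Pnliprp2 (chr19:58759719-58777534, + strand, 1572 exon bases) was lower on average in EPR cKO, with groups that overlapped. Control replicates 1 to 6 gave 84, 35, 127, 54, 16 and 22 counts, and knockout replicates 1 to 6 gave 20, 11, 18, 29, 16 and 5 counts. In CPM, EPR fl/fl ranged from 1.14 to 6.15 with a median of 1.47, and EPR cKO from 0.266 to 1.30 with a median of 0.700. EPR fl/fl replicates 1 and 3 were the high libraries, at 6.15 and 4.03 CPM, and the other 4 control libraries lay between 1.14 and 1.76 CPM, within or close to the range of the knockouts. On average, it was at 2.57 ± 2.08 CPM against 0.755 ± 0.405 CPM (log2 fold change -1.75, SE 0.52). Without EPR fl/fl replicates 1 and 3, a choice made after seeing the data, it was -0.82 (SE 0.39), whereas that of Clps was -2.84 (SE 0.27). Thus the size of the Pnliprp2 difference rested in large part on these 2 libraries.

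Hapln4 (chr8:70083457-70090862, + strand, 3648 exon bases) showed a relative difference close to that of Clps at a lower level. Its counts were 24, 53, 63, 50, 15 and 15 in control replicates 1 to 6, whereas knockout replicates 1 to 6 had 3, 8, 4, 3, 2 and 1. EPR fl/fl ranged from 0.807 to 2.00 CPM with a median of 1.67, and EPR cKO from 0.0532 to 0.339 CPM with a median of 0.150. Again the groups did not overlap. Controls averaged 1.497 ± 0.456 CPM and knockouts 0.159 ± 0.105 CPM, or 10.6% of the control level (log2 fold change -3.22, SE 0.39). Because the knockout counts were so few, the ratio was also taken over the pooled counts, 21 against 220. The pooled EPR cKO level was 9.85% of the EPR fl/fl level, with an exact 95% binomial interval of 5.98% to 15.4% that covers counting error only. Leaving out each library in turn gave log2 fold changes from -3.60 to -3.01.

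Hapln1 (chr13:89539796-89611652, + strand, 5715 exon bases) overlapped between the groups. Counts in control replicates 1 to 6 were 31, 30, 31, 48, 23 and 28, and those in knockout replicates 1 to 6 were 43, 25, 10, 23, 18 and 14. EPR fl/fl ranged from 0.975 to 2.27 CPM with a median of 1.53, and EPR cKO from 0.501 to 2.37 CPM with a median of 0.887. EPR cKO replicate 1, the library rich in stromal markers, held the highest value of all 12 libraries, and the other knockouts did not pass 1.06 CPM. On average, it was at 1.49 ± 0.482 CPM against 1.04 ± 0.688 CPM (log2 fold change -0.51, SE 0.37). Without EPR cKO replicate 1 the log2 fold change was -0.92 (SE 0.29).

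Hapln3 (chr7:79115102-79131018, - strand, 3358 exon bases) was barely detected. It had 0, 0, 2, 7, 3 and 3 counts in control replicates 1 to 6, against 1, 2, 1, 0, 3 and 2 counts in knockout replicates 1 to 6. The 0 counts allow levels of up to 0.220 CPM in EPR fl/fl replicate 1, 0.0975 CPM in EPR fl/fl replicate 2 and 0.134 CPM in EPR cKO replicate 4 (3 counts per library, counting error only). The means of 0.111 ± 0.104 and 0.0650 ± 0.0387 CPM were close to these limits, so no difference was detectable at this depth. Hapln2, the remaining link protein gene and no member of the set, had 0 counts in all 12 libraries.

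**Figure D1:**
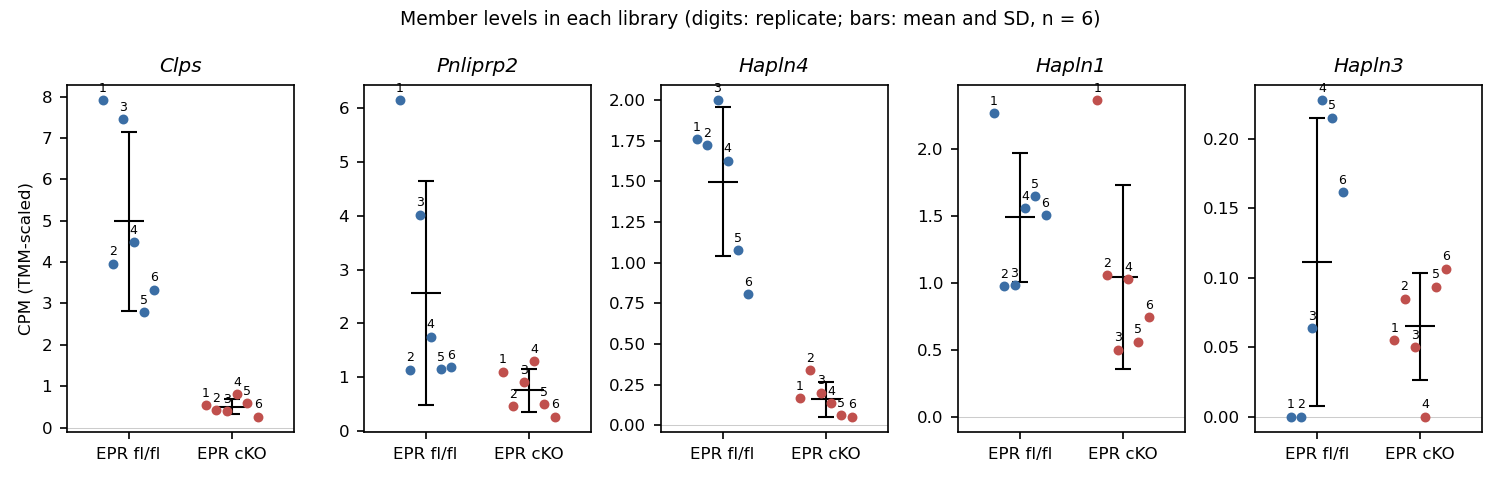
Levels of the 5 genes in each library. The y axes give TMM-scaled CPM on a linear scale that differs between panels, points are libraries with their replicate number (blue, EPR fl/fl; red, EPR cKO), and bars give the mean and SD of 6 libraries. Clps and Hapln4 have no overlap between the groups, whereas Pnliprp2 is high in EPR fl/fl replicates 1 and 3 only and Hapln1 is highest in EPR cKO replicate 1.

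Of the 5 genes, 4 passed the filter of at least 1 CPM in at least 4 libraries, and 15952 genes passed it in all. Clps passed with 6 EPR fl/fl libraries and 0 EPR cKO libraries, and Hapln4 with 5 and 0, so both passed only through the group in which they were high. Pnliprp2 passed with 6 and 2 libraries, Hapln1 with 5 and 3, and Hapln3 reached 1 CPM in none. The groups did not overlap for Clps and Hapln4, with EPR cKO lower. This was so for 1.47% of all tested genes, and 0.169% were lower beyond the study thresholds (adjusted p under 0.001 and a minimum fold change), but the members were chosen with this contrast known and nothing is read from their count. The median log2 fold change of all tested genes was 0.02.

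Per kilobase of exon, Clps was the highest member in the control colon, at 8.17 ± 3.54 CPM per kb, above Pnliprp2 at 1.63 ± 1.32, Hapln4 at 0.410 ± 0.125 and Hapln1 at 0.261 ± 0.0843 CPM per kb. The ranges of mean and SD of Clps and Pnliprp2 did not meet, and those of Pnliprp2 and Hapln4, and of Hapln4 and Hapln1, did. In EPR cKO the order of the link proteins turned, with Hapln1 at 0.183 ± 0.120 and Hapln4 at 0.0436 ± 0.0288 CPM per kb, again with ranges that met. Clps and Pnliprp2 lay closer together there, at 0.829 ± 0.305 and 0.480 ± 0.258 CPM per kb. On this scale Clps ranked at percentile 61.0 of the tested genes in EPR fl/fl, Pnliprp2 at 23.7, Hapln4 at 4.70 and Hapln1 at 1.74. The control libraries varied more for these genes than for most. The coefficient of variation of CPM was 81.0% for Pnliprp2, 43.4% for Clps, 32.3% for Hapln1 and 30.4% for Hapln4. The median over all tested genes, which were not matched to these by count, was 15.2%.

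Clps and Pnliprp2 are products of pancreatic acinar cells, so 20 acinar markers were read in the same libraries. The library with the most counts of digestive enzymes was not the one with the most Clps or Pnliprp2. Apart from Cela1 and Sycn, none of these genes passed the filter, and the other 18 together had 28, 283, 78, 71, 16 and 23 counts in control replicates 1 to 6, against 21, 49, 41, 37, 50 and 22 counts in knockout replicates 1 to 6. Their summed level was 9.19 CPM in EPR fl/fl replicate 2, and 1.15 to 2.47 CPM in the 5 other control libraries against 1.16 to 2.08 CPM in EPR cKO. Amy2a5, a pancreatic amylase gene, had 0 counts in all libraries, but its sequence was not checked for stretches shared with other genes. Pnlip, the lipase that colipase serves, had 42 of its 48 control counts in EPR fl/fl replicate 2. In that library Clps was at 3.96 CPM and Pnliprp2 at 1.14 CPM, both below the control mean. Without EPR fl/fl replicate 2 the log2 fold change was -3.33 (SE 0.35) for Clps and -1.91 (SE 0.52) for Pnliprp2. With all libraries it was -3.27 and -1.75. The part of pancreatic RNA in the Clps and Pnliprp2 values of any library was not tested.

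Of the acinar genes that passed the filter, Sycn fell and Cela1 did not pass the test. Sycn encodes syncollin, a protein of zymogen granule membranes. It ranged from 8.35 to 23.8 CPM in controls and from 1.76 to 7.61 CPM in knockouts, without overlap (13.9 ± 5.84 against 4.06 ± 2.07 CPM, log2 fold change -1.77, SE 0.35, edgeR adjusted p = 0.0202). Sycn was highest in control replicate 3, and Clps and Pnliprp2 were highest in control replicate 1. Clps was nearly as high in replicate 3, at 7.45 against 7.91 CPM. The call of Sycn was lost without EPR fl/fl replicate 3 (adjusted p = 0.05002), EPR fl/fl replicate 4 (0.0538) or EPR cKO replicate 3 (0.0515). Cela1, an elastase, averaged 26.5 CPM in controls and 40.1 CPM in knockouts (log2 fold change 0.60, adjusted p = 0.0547).

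**Figure D2:**
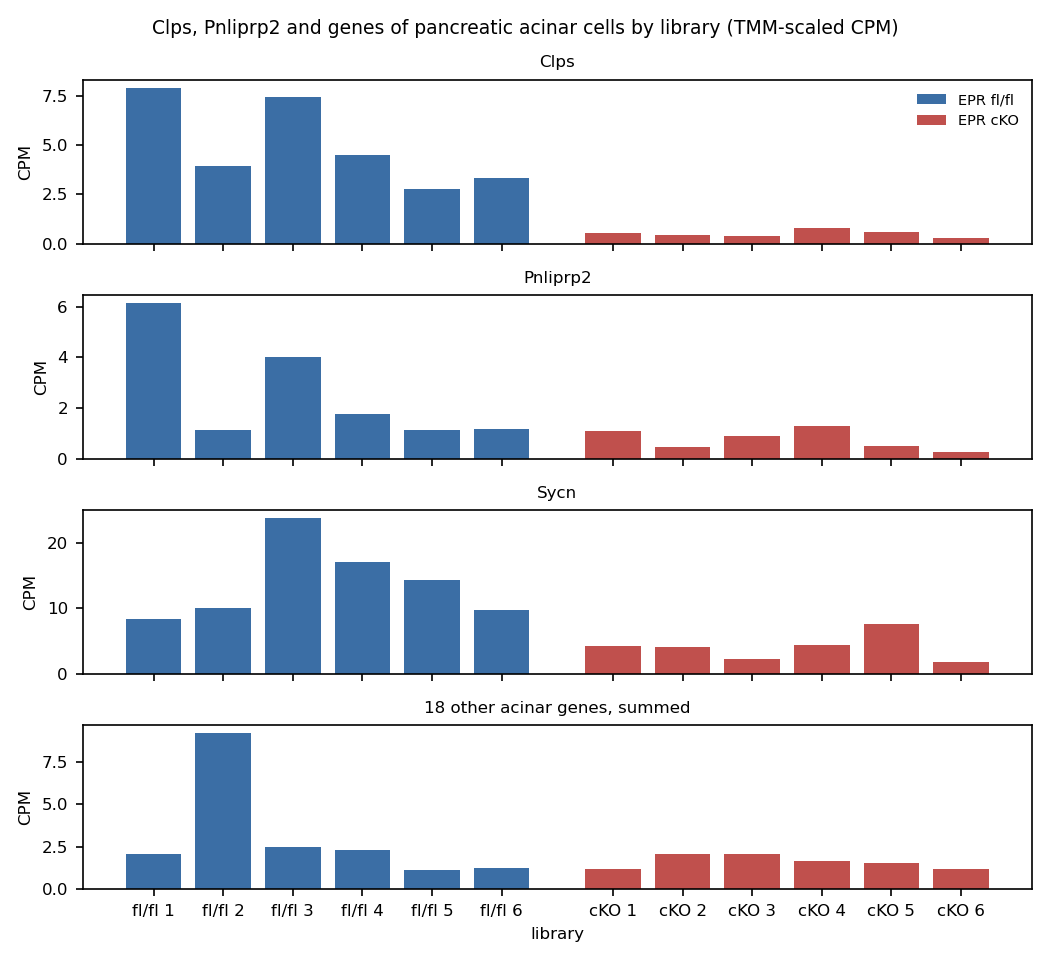
Clps, Pnliprp2, Sycn and the summed level of 18 other acinar genes in each library. Bars start at 0 and give TMM-scaled CPM in the 6 EPR fl/fl (blue) and 6 EPR cKO (red) libraries. EPR fl/fl replicate 2 holds the most of the 18 summed genes (9.19 CPM) but not of Clps, Pnliprp2 or Sycn.

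Of the tested genes of fat digestion and uptake, 1 passed the test, Lipg. Of 30 listed genes, 19 passed the filter, and by edgeR 0 were lower and 1 was higher in EPR cKO at an adjusted p under 0.05, where 1.57% and 0.884% of all tested genes were. At an unadjusted p under 0.05, 5 of the 19 were lower and 5 higher. These are larger shares than the 7.12% and 11.1% of all tested genes, in lists chosen with earlier results of these data known. The DESeq2 Wald test called 1 lower and 2 higher. The median log2 fold change was -0.27 over the 8 tested lipases and -0.14 over the 11 tested uptake and lipoprotein genes. Lipg, endothelial lipase, rose from 25.5 ± 4.60 to 39.1 ± 5.02 CPM without overlap (log2 fold change 0.62, SE 0.13, edgeR adjusted p = 0.0218), with the call lost without EPR fl/fl replicate 4 (0.0689), EPR cKO replicate 3 (0.0664) or EPR cKO replicate 4 (0.0562).

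The other digestive lipases of the gut lumen were near 0, as Pnlip had 48 counts over all controls and 5 over all knockouts, Cel, the bile salt-stimulated lipase, 28 and 2, Pnliprp1 7 and 5, and Lipf, gastric lipase, 1 and 0. Per kilobase the leading genes of the lists were Fabp2, an intestinal fatty acid binding protein, at 515 CPM per kb in controls and 775 in knockouts (adjusted p = 0.220), Lpl, lipoprotein lipase, at 82.4 and 32.8 (adjusted p = 0.243), and Slc10a2, the ileal bile acid transporter, at 76.9 and 69.7 (adjusted p = 0.673). Pnpla2, the adipose triglyceride lipase, was at 46.8 and 41.3 CPM per kb (adjusted p = 0.394). Fabp6, the ileal bile acid binding protein, is named after its values were seen. It went from 6.52 ± 5.57 to 1.58 ± 0.644 CPM and did not pass the test (log2 fold change -2.02, edgeR adjusted p = 0.0515). Without EPR fl/fl replicate 2 or without EPR fl/fl replicate 3 it did. Its groups barely stood apart, at 2.346 CPM in the lowest control and 2.342 CPM in the highest knockout. The highest control, EPR fl/fl replicate 1, held 17.4 CPM. Leaving out EPR cKO replicate 1 gave a fit that called 14.4% of all tested genes lower and 7.44% higher at an adjusted p under 0.05. In it, Lipa and Lipg were higher and 7 genes of these lists were lower, Cd36, Fabp6, Lipe, Lpl, Mgll, Pla1a and Pnpla2. The adipocyte markers summed to 823 ± 405 CPM in controls and 326 ± 319 CPM in knockouts, with 947 CPM in EPR cKO replicate 1, and their part in these values was not tested.

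No tested gene of the hyaluronan matrix lists passed the test. Of 38 listed genes in the table, 21 passed the filter. By edgeR 0 were lower and 0 higher at an adjusted p under 0.05, where 1.57% and 0.884% of all tested genes were. At an unadjusted p under 0.05, 2 were lower and 1 higher, where 7.12% and 11.1% of all tested genes were. The DESeq2 Wald test called 0 in either direction. The smallest adjusted p was 0.128, and the median log2 fold change was -0.07. Without EPR cKO replicate 1, 6 were lower (Adamts5, Hyal1, Layn, Lyve1, Stab1 and Tnc) and 1 was higher, Cd44. That fit called 14.4% of all tested genes lower and 7.44% higher.

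The lecticans, to which link proteins bind, are neighbours of the link protein genes. Vcan (versican) lies 43.7 kb from Hapln1, Ncan (neurocan) 2.2 kb from Hapln4, Bcan (brevican) 21.8 kb from Hapln2, and Acan (aggrecan) directly beside Hapln3, with 0 genes of the table between the members of each pair. Vcan was by far the most abundant, at 23.8 ± 3.68 CPM in controls and 23.4 ± 10.3 CPM in knockouts (log2 fold change -0.03, adjusted p = 0.963). Ncan, next to Hapln4, had 88 and 61 counts in total and did not pass the filter. EPR cKO replicate 1 held 37 of the 61, and without it the knockouts had 24 counts and averaged 0.212 ± 0.248 CPM, against 0.678 ± 0.259 CPM in controls. Bcan was at 1.04 ± 0.301 and 0.482 ± 0.392 CPM (log2 fold change -1.14, adjusted p = 0.154), and Acan had 6 and 7 counts. Tnc, the lectican ligand tenascin C, led this list per kilobase, at 16.5 CPM per kb in controls and 14.3 in knockouts (log2 fold change -0.20, adjusted p = 0.785).

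Hyaluronan itself is made by the Has enzymes from sugars supplied by Ugdh, broken down by hyaluronidases, and bound by receptors such as Cd44. Ugdh was at 266 CPM per kb in controls and 287 in knockouts (log2 fold change 0.11, adjusted p = 0.554), and Has2 at 0.253 and 0.234 CPM per kb (log2 fold change -0.09, adjusted p = 0.923). The hyaluronidases Hyal2 (11.2 and 12.6 CPM per kb, adjusted p = 0.374) and Cemip2 (10.4 and 10.9, adjusted p = 0.608) did not pass the test. Itih5, a hyaluronan-binding inter-alpha-trypsin inhibitor chain, was at 21.3 and 20.3 CPM per kb (adjusted p = 0.753), and Cd44 at 17.4 and 21.8 CPM per kb (log2 fold change 0.32, adjusted p = 0.128). Of the proteases that cleave lecticans, Adamts1 was at 2.23 and 1.84 CPM per kb (adjusted p = 0.694) and Adamts15 at 1.92 and 2.09 CPM per kb (adjusted p = 0.697).

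**Figure D3:**
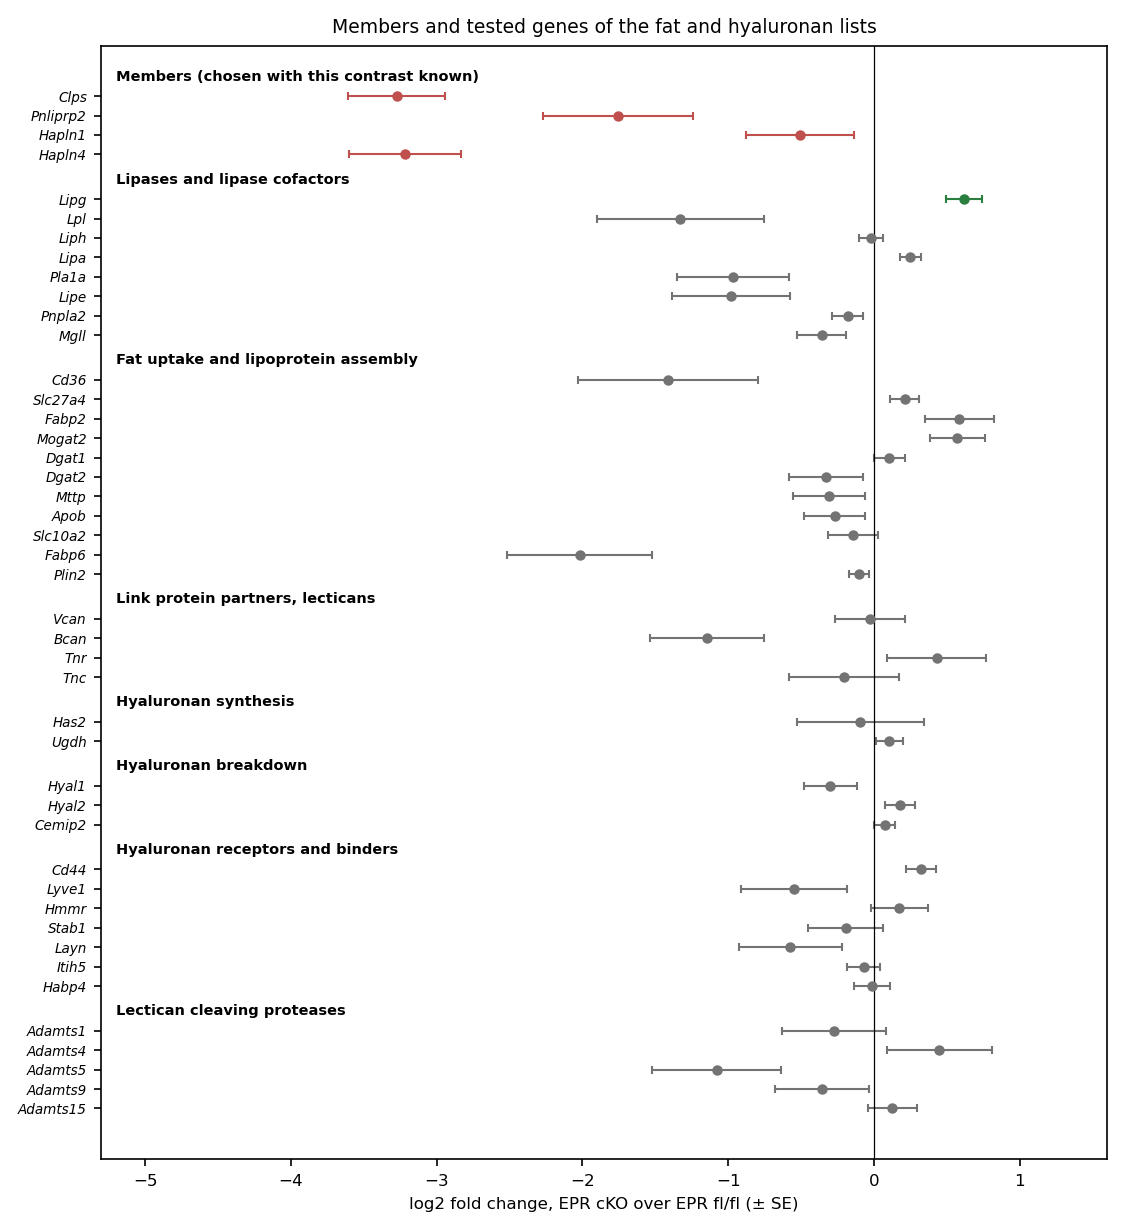
Log2 fold changes with SE of the members and of the tested genes of the fat and hyaluronan lists. The x axis gives EPR cKO over EPR fl/fl on the log2 scale, red points are the members, which were chosen with this contrast known, the green point passed an adjusted p under 0.05 (edgeR), and grey points did not. Lipg (0.62) is the only green point, and Fabp6 (-2.02) has the lowest grey value.

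None of the nearest tested genes on the chromosomes of the members passed the test with all libraries. The nearest 2 tested genes on each side of each member made 20 genes, with log2 fold changes from -0.60 to 0.49. Their gaps to the member ran from 2.8 kb (Mfge8) to 3492.9 kb (Cox7c), so some were far away. Ncan and Acan, which are nearer to Hapln4 and Hapln3, did not pass the filter and are not among the 20. By edgeR 0 passed an adjusted p under 0.05 (adjusted p 0.131 to 0.963), where 1.57% of all tested genes were lower and 0.884% higher. At an unadjusted p under 0.05 there were 6, where 7.12% of all tested genes were lower and 11.1% higher. The DESeq2 Wald test called 0. Groups without overlap were found for 0 of them, against 1.47% lower and 1% higher of all tested genes. Without EPR cKO replicate 1, 3 were lower (Gfra1, Hspa12a and Mfge8) and 4 were higher (Srpk1, Shtn1, Cox7c and Tm6sf2) at an adjusted p under 0.05, in a fit that called 14.4% of all tested genes lower and 7.44% higher. Beside Clps, log2 fold changes were 0.21 for E230001N04Rik, 0.29 for Fkbp5, 0.23 for Srpk1 and -0.04 for Mapk14. Beside Hapln4 they were 0.49 for Tm6sf2, 3.4 kb away, -0.06 for Sugp1, -0.05 for Rfxank and 0.26 for Nr2c2ap.

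Beside Pnliprp2 they were -0.45 for Gfra1, 0.02 for Atrnl1, -0.60 for Hspa12a and 0.22 for Shtn1. Beside Hapln1 they were -0.16 for Edil3, 0.36 for Cox7c, -0.03 for Vcan and -0.18 for Gm4117, and beside Hapln3 -0.17 for Isg20, 0.23 for Aen, -0.34 for Mfge8 and 0.14 for Abhd2. The values of Atrnl1, Edil3 and Vcan changed sign in some of the alternative settings given in the closing section.

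**Figure D4:**
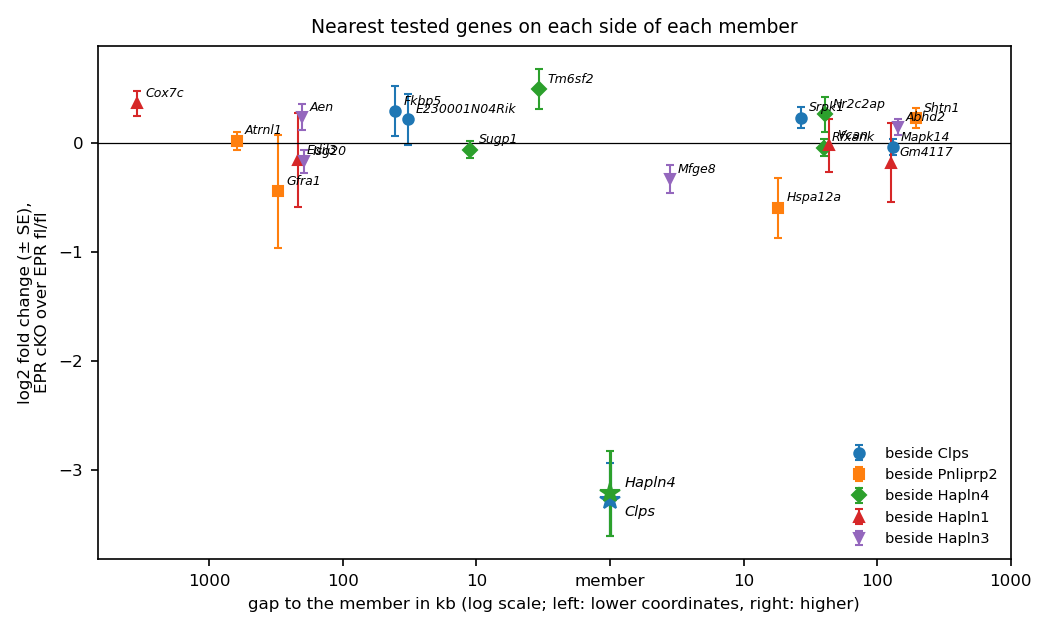
Log2 fold changes with SE of the 2 nearest tested genes on each side of each member, against the gap to the member in kb on a log scale. Genes to the left lie at lower coordinates, and stars give Clps and Hapln4 at their own position. All 20 genes lie between -0.60 and 0.49, above the stars at -3.27 and -3.22.

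Among libraries, Clps and Pnliprp2 went together. After the group means were taken away, Pearson's r of their log2 CPM over the 12 libraries was 0.88 (Spearman's rho 0.85), and without EPR fl/fl replicates 1 and 3 it was 0.74 (rho 0.61). All 12 libraries share 1 table and scaling, and these correlations are descriptions. The genes most like Clps in this measure, out of 15519, were Odf2l (r = 0.92), Zfp790 (0.91) and Pnliprp2, and those most like Pnliprp2 were Nebl (0.90), Lin52 (0.89) and Clps. Each of the pair was thus at rank 3 of the genes most like the other. The top of so many correlations over 12 libraries can be high without a relation. For Clps with the acinar gene Sycn, r was 0.44 (rho 0.54), and 0.67 (rho 0.79) without EPR fl/fl replicates 1 and 3. For Pnliprp2 with Sycn, r was 0.17 (rho 0.35), and 0.32 (rho 0.38) without EPR fl/fl replicates 1 and 3.

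For Hapln1 and Hapln4, other genes had the highest residual r. They are the top of 15519 (Hapln1) and 15520 (Hapln4) correlations over 12 libraries, where high values can arise without a relation. The genes most like Hapln1 were Cys1, Hlf and Abca9 (r = 0.95 each). EPR cKO replicate 1 was the outlying library of Hapln1, and these values were not taken again without it. For Hapln1 with Vcan, residual r was 0.72 over all libraries and 0.43 without EPR cKO replicate 1. The genes most like Hapln4 were Tnfrsf23 (0.91), Hpn (0.90) and Slc13a2 (0.89), with at most 8 counts of Hapln4 in any EPR cKO library. Hpn, the membrane serine protease hepsin, fell in EPR cKO (log2 fold change -1.64, SE 0.35, edgeR adjusted p = 0.0254), whereas Tnfrsf23 (-0.52, adjusted p = 0.215) and Slc13a2 (0.33, adjusted p = 0.153) did not pass the test. Clps and Hapln4 were less alike, with a residual r of 0.41.

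Variation among the EPR fl/fl libraries alone was not used to choose the members, and 5 relations were tested in it by two-sided exact permutation tests (n = 6, Benjamini-Hochberg over the 5). None passed 0.05 after adjustment. Clps with Hapln4 gave r = 0.77 (exact p = 0.0472, adjusted 0.116) and rho = 0.83 (p = 0.0583), and r was 0.73 without the 2 libraries farthest from the median. Clps with Muc2, the gene of the main mucin of goblet cells, gave r = 0.81 (exact p = 0.0361, adjusted 0.116) and rho = 0.83 (p = 0.0583). Without 2 of the 6 libraries, EPR fl/fl replicates 1 and 3, r was 0.99, which rests on very few libraries. Over all 12 libraries, with the group means taken away, r of Clps with Muc2 was 0.50 (rho 0.45). It was 0.20 (rho 0.24) without EPR fl/fl replicates 1 and 3. Hapln4 with Muc2 gave r = 0.76 (exact p = 0.0694, adjusted 0.116) and rho = 0.77 (p = 0.103), and r was 0.84 without 2 libraries. With the group means taken away, their r over 12 libraries was 0.67 (rho 0.73). It was 0.64 (rho 0.87) without EPR fl/fl replicates 1 and 3.

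For the level of EPR itself, no relation with Clps or Hapln4 was shown among the control libraries. For Clps with EPR, r was 0.23 (exact p = 0.667, adjusted 0.833), rho 0.60 (p = 0.242) and r without 2 libraries 0.84. For Hapln4 with EPR, r was 0.13 (exact p = 0.889, adjusted 0.889), rho 0.31 (p = 0.564) and r without 2 libraries -0.80. With 6 libraries, values of r for EPR thus depended on which libraries were kept.

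**Figure D5:**
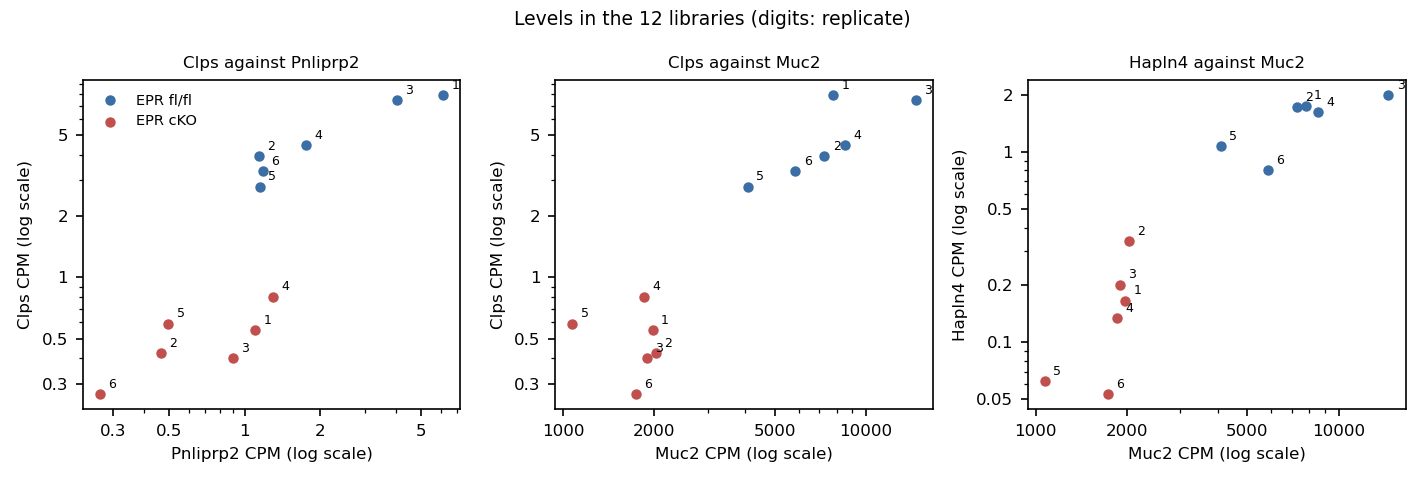
Clps against Pnliprp2, and Clps and Hapln4 against Muc2, in the 12 libraries. Both axes give TMM-scaled CPM on log scales, and digits are replicate numbers (blue, EPR fl/fl; red, EPR cKO). EPR fl/fl replicates 1 and 3 are the high points of Clps and Pnliprp2, and the groups stand apart in Clps, Hapln4 and Muc2.

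Markers of goblet cells were lower in EPR cKO, as Clps and Hapln4 were. Of 19 goblet cell markers, all tested, 9 fell at an adjusted p under 0.05, where 1.57% of all tested genes did (Muc2, Tff3, Clca1, Zg16, Atoh1, Spdef, Creb3l4, Sytl2 and Bcas1), all 19 had log2 fold changes below 0 with a median of -0.79, and their summed level ranged from 14170 to 29300 CPM in controls and from 6629 to 9145 CPM in knockouts. Muc2 went from 8027 ± 3589 to 1760 ± 351 CPM. The number that fell was 15 without EPR cKO replicate 1, where 14.4% of all tested genes fell. It was 4 without EPR cKO replicate 3 and 5 without EPR cKO replicate 6. Taken relative to the goblet cell sum of the same library, the log2 difference was -2.01 for Clps, -2.19 for Hapln4, -0.36 for Pnliprp2 and 0.60 for Hapln1. Clps and Hapln4 stayed lower in EPR cKO on this scale, but they were picked with this contrast known and nothing is read from that. The Pnliprp2 difference was much smaller on this scale, and that of Hapln1 changed sign. Muc2 alone made up 8027 of the 19588 CPM of the sum in controls, so the sum is not a measure of goblet cell number.

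Epithelium markers summed to 9094 ± 1470 CPM in controls and 11632 ± 1721 CPM in knockouts, with all 7 log2 fold changes above 0. Relative to this sum the log2 difference was -3.63 for Clps, -3.81 for Hapln4, -1.98 for Pnliprp2 and -1.02 for Hapln1. Both scales were added after seeing the data, and they give differences of mean log2 ratios without a prior count, not edgeR fits. The neuron and glia markers, which include the cells best known for link proteins, summed to 80.9 to 153 CPM in controls and 33.5 to 294 CPM in knockouts, with 13 of 15 log2 fold changes below 0 and a median of -0.35. EPR cKO replicate 1 alone made the upper end, and the 5 other knockouts lay between 33.5 and 84.6 CPM, with a mean of 56.7 ± 24.7 CPM. The part of these cell types in the member values was not tested.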

How the data were processed

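RNA-Seq libraries of ribosome-depleted RNA, 6 from EPR fl/fl and 6 from EPR cKO proximal colon, were sequenced on an Illumina NovaSeq. Per the study's methods, reads were trimmed with Trimmomatic, aligned to mm10 with STAR 2.5.3a and counted per gene with featureCounts on an Ensembl annotation of that build. The authors deposited these raw counts unfiltered and not normalized, beside exon coordinates and a summed exon length. The libraries were stranded, but the strand setting of the counting and its handling of multi-mapping reads are not given in the sources used here. No exon base of a member overlaps another gene of the table, and 0% of the 50-base stretches of the transcripts of Clps, Pnliprp2, Hapln3 and Hapln4, and 0.308% of those of Hapln1, occur in another gene. All 12 columns were assigned to samples by name.

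Counts were tested in R 4.3.3 with edgeR 4.0.16 (TMM scaling, glmQLFit and glmQLFTest, no covariate, Benjamini-Hochberg). As in the study, the filter was a CPM of 1 or more in 4 or more libraries, which left 15952 of the 36694 with a count. CPM values are TMM-scaled, as mean ± SD. The SE of a log2 fold change is its size divided by the square root of F. Hapln3, which did not pass the filter, was not fitted for the text. Log2 CPM for correlations used a prior count of 2. The script was tested on simulated data.

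The members and gene lists were chosen with earlier results of these data known. Genes named in the text were the members, EPR, list genes with adjusted p under 0.05, the leading genes per kilobase of each list, the lecticans, the 2 nearest tested genes on each side of a member, and the 3 genes of mean CPM of at least 1 with the largest residual correlation with each tested member. Others were named after their values were seen. Alternatives were DESeq2 size factors, total counts, no filter, the DESeq2 1.42.0 Wald test, a replicate block, a prior count of 0.5 and each library left out. Added after seeing the data were levels relative to epithelium or goblet cell marker sums, and a fit without EPR fl/fl replicates 1 and 3. Libraries are 1 per animal.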

Additional observations from a re-analysis of the deposited data

Results flagged for a closer look

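Within groups of 6 libraries, 2 of 12 sets of values held a library far from the others, where chance gives about 1 in 20. Hapln1 was at 2.37 CPM in EPR cKO replicate 1 and at 0.501 to 1.06 CPM in the other EPR cKO libraries. EPR (Smim31) was at 0.424 CPM in EPR cKO replicate 2 and at 0 to 0.134 CPM in the other EPR cKO libraries.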

How the results depend on the processing

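The differences of Clps, Pnliprp2, Hapln4 and Hapln1 kept their direction under every alternative tried, except that Hapln1 turned to 0.60 on the goblet cell scale added later, where Clps was at -2.01, Pnliprp2 at -0.36 and Hapln4 at -2.19. Hapln4 was at -3.81 on the epithelium scale. Values on these 2 scales are differences of mean log2 ratios, so they are not directly comparable in size with the edgeR log2 fold changes. Without EPR fl/fl replicates 1 and 3, log2 fold changes ran down to -0.82 for Pnliprp2, and Hapln4 could not be fitted as it failed the filter. With each library left out, Pnliprp2 ranged from -1.98 to -1.32 and Hapln1 from -0.92 to -0.37.

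Counts of called genes moved more, and the causes were not tested. Genes past the study thresholds (adjusted p under 0.001 and a minimum fold change) were 27 lower and 0 higher, with 69 and 8 by the DESeq2 Wald test, and 19 to 48 and 0 to 3 with each library left out. At an adjusted p under 0.05, 251 were lower (473 by DESeq2, 145 to 2273 with a library left out) and 141 higher (39 with total counts, 54 without filter, 440 by DESeq2, 28 to 1178 with a library left out). Leaving out EPR cKO replicate 1 gave the upper end of each of these ranges. Fat genes were 0 lower (1, Fabp6, with total counts, without filter and by DESeq2, 0 to 7 with a library left out) and 1 higher (2 by DESeq2, 0 to 2 with a library left out). Hyaluronan genes went from 0 to 6 lower and from 0 to 1 higher, and genes beside the members from 0 to 3 lower and from 0 to 4 higher, in each case only without EPR cKO replicate 1. Goblet cell genes were 9 lower (14 by DESeq2, 4 to 15 with a library left out). Genes of the other marker lists were 1 lower (2 by DESeq2, 0 to 27 with a library left out) and 0 higher (2 by DESeq2, 0 to 4 with a library left out).

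Replicate numbers did not pair the libraries, as same-numbered libraries had residual correlations from -0.24 to 0.34 and 2 of 6 numbers matched best with their own. With the replicate block, 4 genes passed the study thresholds, and at an adjusted p under 0.05, 178 were lower and 67 higher, with 0 fat genes (Lipg lost its call, adjusted p = 0.0647) and 1 gene of the other marker lists higher. The log2 fold change with the block was -3.21 for Clps, -3.26 for Hapln4, -1.60 for Pnliprp2 and -0.63 for Hapln1.

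Correlations with EPR within EPR fl/fl changed sign, to -0.023 for Hapln4 with total counts, and ranged from -0.24 to 0.79 for Clps and from -0.20 to 0.54 for Hapln4 with a library left out. Log2 fold changes changed sign for Atrnl1 (-0.017 with total counts, -0.0061 without filter, -0.033 to 0.063 with a library left out), Edil3 (-0.71 to 0.025) and Vcan (-0.28 to 0.12). Depth limits Hapln3, with at most 7 counts per library, and Hapln4 in EPR cKO, with at most 8.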
